A study of Caenorhabditis elegans with 2 samples.

Results

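The genes described here are the protein-coding genes of Caenorhabditis elegans that carry names of the secretory and endosomal trafficking machinery, and the measurement is where the chromatin remodeller ISW-1 was found near their starts. Members are those whose Ensembl WBcel235 name begins with rab-, arl-, arf-, sar-, vps-, snx-, sec-, cop or tram-, which gave 95 of the 19973 protein-coding genes of the nuclear genome. ISW-1 is the ATPase subunit of ISWI-type remodelling complexes, which slide and space nucleosomes. ChIP-seq used an antibody against GFP in strain OP181, in which the integrated transgene wgIs181 carries isw-1 tagged with TY1, EGFP and 3xFLAG together with unc-119(+) in an unc-119(ed3) background. Whole L1 larvae at 6 hours, starved after bleaching, were used, and chromatin was sonicated. The 2 samples are biological replicates of this single condition, so no conditions could be compared. The tagged protein comes from a transgene and the material is the whole animal, so fewer cells with ISW-1 at a site and weaker binding per cell cannot be told apart.

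Proteins enter the secretory pathway through the SEC61 channel of the endoplasmic reticulum (ER) and leave the ER in vesicles coated by COPII, while COPI coats return proteins from the Golgi. Small GTPases of the Arf and Rab families recruit coats and mark each membrane, and tethers and SNAREs bring vesicles to their targets. On the endocytic side, ESCRT complexes sort receptors into the lumen of endosomes, and HOPS and CORVET tether endosomes and lysosomes. Retromer carries proteins back to the Golgi, GARP tethers traffic out of endosomes, and the exocyst tethers vesicles at the plasma membrane.

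ISW-1 lay at the promoters of 35 of the 95 trafficking genes (36.8%, 95% Wilson interval 27.8 to 46.9%, which covers only the number of genes), against 1997 of all protein-coding genes (10%). A gene was counted as bound when a peak had its summit no more than 1000 bp before or 500 bp after the outermost start annotated for it, in the conservative thresholded set that the authors made from both replicates. In the replicates' own thresholded sets, 35 members had such a summit in replicate 1, against 9.82% of all protein-coding genes, and 35 in replicate 2, against 8.6%. The members were not quite the same ones, and 32 were bound in all 3 of these sets. The vacuolar sorting genes vps-24 and vps-45 lacked a peak in replicate 1's own set and vps-37 lacked one in replicate 2's. Outside the conservative set, snx-3 and vps-28 had a peak in replicate 1's set alone, with signals of 60.9 and 61.9, and vps-36 in replicate 2's set alone, with 60.8. No thresholded set held a summit for 57 members. Counting each summit only for the gene with the nearest start left 23 members (24.2%, against 7.01% of all genes). Keeping only peaks at or above the median signal of all conservative peaks (189) left 22 (23.2%, against 6.02%). Genes are not independent, since neighbours can share a summit, and no test was made over the members.

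**Figure D1:**
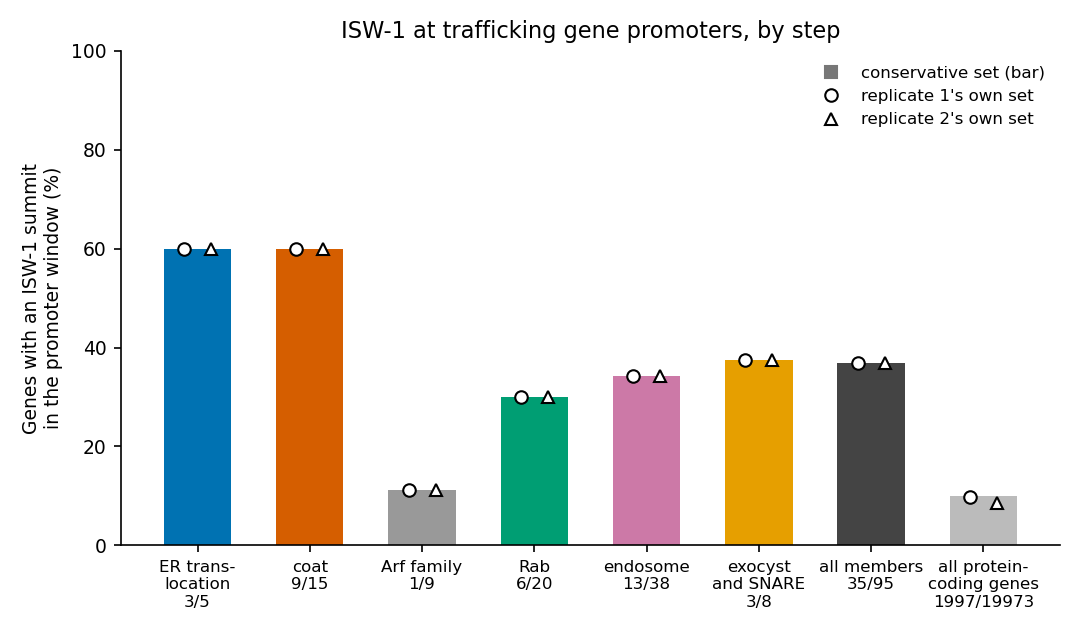
Share of genes with an ISW-1 summit in the promoter window (y axis, percent), for each step of the pathway, all 95 members and all 19973 protein-coding genes. Bars give the conservative set, circles replicate 1's own set and triangles replicate 2's own set, with the number bound over the number of genes under each bar. ER translocation and coat genes stand at 60%, the Arf family at 11.1%, and all protein-coding genes at 10%.

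By step of the pathway, the share was 60% for ER translocation (3 of 5 genes, interval 23.1 to 88.2%) and 60% for vesicle coats (9 of 15, interval 35.7 to 80.2%). The exocyst and SNARE group had 37.5% (3 of 8), the endosome group 34.2% (13 of 38) and the Rab GTPases 30% (6 of 20). The Arf family had 11.1% (1 of 9), close to the 10% of all protein-coding genes. Each step had the same number of bound genes in either replicate's own set. The steps are small and their intervals are wide, and no difference between steps was tested.

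Peak heights are given as the signal value that the authors deposited with each peak. Each set has its own scale, so heights are compared only within a set. In the conservative set, signals of all peaks ran from 37.5 to 2624. Bound members had a median signal of 294, against 232 for all bound genes. Of the 35, 15 lay above the upper quartile of all bound genes (390) and 8 below the lower quartile (147). Medians by step were 731 for ER translocation, 425 for the endosome group, 313 for Rab GTPases, 294 for the exocyst and SNARE group, 170 for coats and 164 for the single Arf gene. Coat genes were thus often bound but with lower peaks than the median bound gene. Among the 32 members with a peak in both replicates' own sets, signals in replicate 1 and replicate 2 had a Spearman rho of 0.884, and among the 1554 bound genes with both the rho was 0.904. These are descriptions over promoters of the same 2 libraries, some of which share a peak.

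**Figure D2:**
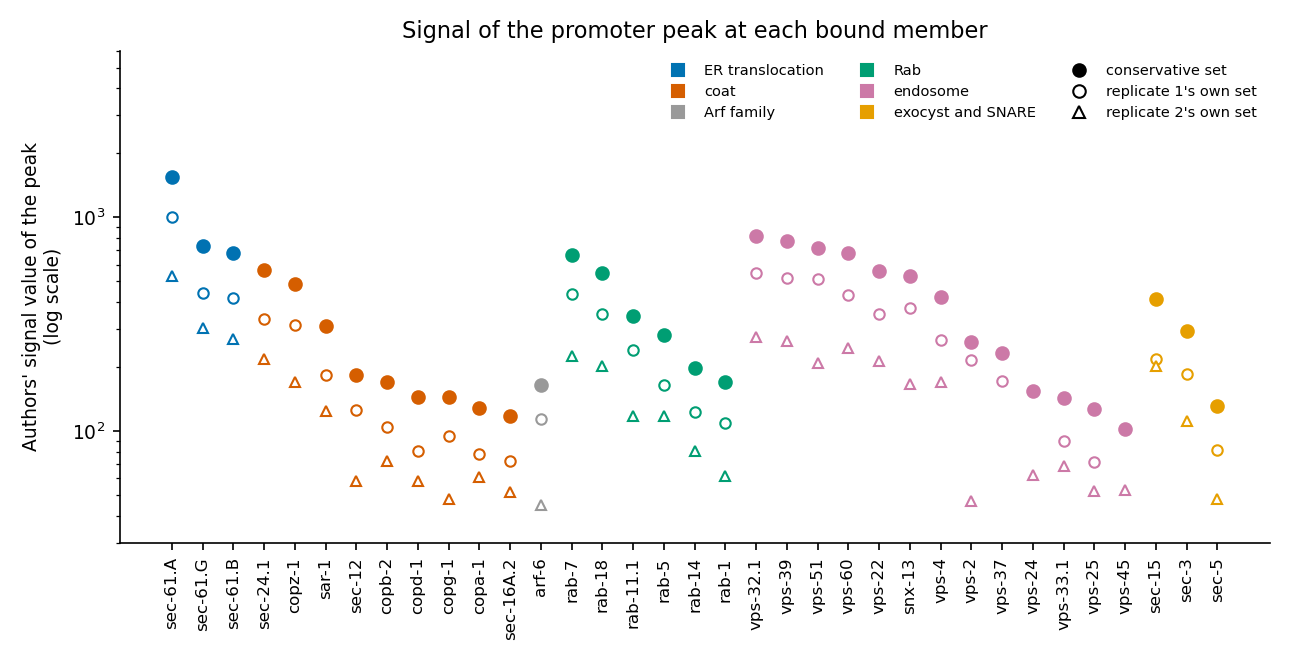
Signal of the promoter peak (y axis, authors' value, log scale) at each of the 35 bound members, ordered by step and height. Filled circles give the conservative set, open circles replicate 1's own set and open triangles replicate 2's own set, and colours give the step. The highest is sec-61.A at 1538 and the lowest vps-45 at 102, and vps-24, vps-37 and vps-45 lack a point in the own set of 1 replicate.

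All 3 genes of the SEC61 channel, through which new proteins enter the ER, had high ISW-1 peaks. The peak at sec-61.A, which encodes the channel's alpha subunit, was the 9th highest of all 2143 conservative peaks (IV:14824933-14825341, ce11), with a signal of 1538 in the conservative set and 1002 and 529 in the own sets of replicates 1 and 2. Its summit lay 135 bp downstream of the start, in the 5′ UTR, and also counted for rps-18, a small ribosomal subunit gene that starts 550 bp away. The gamma subunit gene sec-61.G had 731 in the conservative set and 443 and 302 in the own sets of replicates 1 and 2, with the summit 237 bp upstream (V:10897247-10897527). The beta subunit gene sec-61.B had 679, 417 and 268 in the same order (IV:2389006-2389286). Its summit lay 468 bp upstream and 302 bp upstream of trap-3, a subunit gene of the translocon-associated protein complex, so the nearer start was that of trap-3. All 3 channel genes were above the upper quartile of bound genes. The other genes of this step, sec-11, which encodes the catalytic subunit of signal peptidase, and tram-1, which encodes a channel-associated membrane protein, had no summit in the window. The nearest conservative summit to tram-1 lay 1150 bp upstream of its start, with a signal of 110.

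The bases within 50 bp of the summit of sec-61.G (V:10897330-10897430, WBcel235, minus strand, the coding strand of the gene) are shown because they carry TGCGTCTC, one of 4 sequences that earlier results on these data singled out. This and the other sequences come from the RefSeq genome sequence of WBcel235, run 5′ to 3′ on the coding strand of the member, and have in capitals the searched sequence, on whichever strand it was found.
sec-61.G: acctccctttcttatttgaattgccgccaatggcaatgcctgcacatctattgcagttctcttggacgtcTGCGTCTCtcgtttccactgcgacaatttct

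Coat genes were bound on both the outward and the return route, 9 of 15 in all (60%), against 10% of all protein-coding genes. With each summit given to the nearest start alone, 7 of the 15 remained (46.7%, against 7.01%), without copa-1 and copz-1. Of the COPI genes, 5 of 7 were bound (71.4%), namely copz-1 (zeta subunit), copb-2 (beta prime), copd-1 (delta), copg-1 (gamma) and copa-1 (alpha), whereas copb-1 and cope-1, for the beta and epsilon subunits, were not. Of the COPII genes, 4 of 8 were bound (50%). These were sec-24.1, for the cargo-binding inner coat protein, sar-1, for the GTPase that starts coat assembly, sec-12, for its exchange factor, and sec-16A.2, for a scaffold of ER exit sites. The inner coat gene sec-23, the outer coat gene sec-31, sec-16A.1 and sec-24.2 had no summit. The gene of the outer coat's other subunit, SEC13, is named npp-20 in this species and so is no member. It is named here after its values were seen, and it had a conservative summit 44 bp upstream with a signal of 109 and no peak in either replicate's own set.

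The highest coat peak was that of sec-24.1 (IV:11566231-11566466), with a signal of 569 in the conservative set and 333 and 216 in the own sets of replicates 1 and 2, and its summit lay 147 bp upstream. It was followed by copz-1 (II:10872619-10872844) with 486, 313 and 169 in the same sets, whose summit lay 157 bp upstream and 111 bp from the divergent start of cyn-4. The peak of sar-1 (IV:4513606-4513788) had 309, 182 and 124, with the summit 353 bp upstream. Only these 3 coat genes were above the median of all bound genes. The other 6 had lower peaks, from 183 at sec-12 (125 in replicate 1 and 58.0 in replicate 2) through 170 at copb-2 (104 and 72.1), 143 at copd-1 (80.4 and 58.1), 143 at copg-1 (95.1 and 47.9) and 128 at copa-1 (78.3 and 60.6) to 117 at sec-16A.2 (72.2 and 51.9). All 9 passed in both replicates. Their summits were upstream of the start in every case, by 140 bp at sec-12 to 508 bp at copd-1.

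At 5 of the 9 coat summits (55.6%), namely those of copb-2, copd-1, copz-1, sec-16A.2 and sec-24.1, the 100 bp on each side held GTCTCG followed after 3 bases by CGA, on one strand or the other. This arrangement was noticed in members' summit sequences, those of coat genes among them, and then counted, so the count is a description. It occurred at 8 of the 35 bound members' summits (22.9%), the others being sec-61.A, rab-11.1 and vps-60, against 7.73% of the 1423 summits in promoter windows, and in 1.5% of windows of the same 201 bases placed 300 to 100 bp upstream of every protein-coding gene. Outside the coat genes, it occurred at 3 of 26 bound members' summits (11.5%). In the same windows of the 60 unbound members it occurred in 0. GTCTCG alone was found at 12 members' summits (34.3%), against 19.7% of promoter summits and 5.8% of all promoter windows. A match says nothing of which factor, if any, binds there. The bases within 50 bp of 4 of these summits and that of sar-1, which lacks the arrangement, are given with GTCTCG and CGA in capitals and, for sec-24.1, also GAGACGCA, the other strand of TGCGTCTC. The windows are IV:11566291-11566391 (minus strand), II:10872672-10872772 (plus), IV:9459366-9459466 (plus), III:6625430-6625530 (minus) and IV:4513622-4513722 (minus).
sec-24.1: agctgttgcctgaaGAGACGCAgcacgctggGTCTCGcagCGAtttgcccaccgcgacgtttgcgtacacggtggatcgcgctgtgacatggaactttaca
copz-1: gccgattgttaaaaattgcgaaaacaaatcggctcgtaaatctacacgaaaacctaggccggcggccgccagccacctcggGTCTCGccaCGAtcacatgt
copb-2: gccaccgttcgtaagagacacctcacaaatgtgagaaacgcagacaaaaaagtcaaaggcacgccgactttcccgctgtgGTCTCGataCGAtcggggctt
copd-1: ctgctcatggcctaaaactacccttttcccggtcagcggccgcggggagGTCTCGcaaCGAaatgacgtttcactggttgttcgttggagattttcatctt
sar-1: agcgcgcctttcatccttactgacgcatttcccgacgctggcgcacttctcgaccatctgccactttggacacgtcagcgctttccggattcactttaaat

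Among the Arf family, GTPases that recruit coats and other effectors to membranes, arf-6 alone was bound. ARF-6 acts at the plasma membrane and in endosome recycling. Its gene had a signal of 164 in the conservative set and 114 and 45.1 in the own sets of replicates 1 and 2 (IV:16946760-16947135), below the median of bound genes. The summit lay 172 bp upstream and 148 bp from the divergent gene Y116A8C.9, whose start was the nearer. No summit was found for arf-1 and arf-5 or for the 6 Arf-like genes, arl-1, arl-3, arl-5, arl-6, arl-8 and arl-13. Within its gene, arf-1 had a conservative summit in an intron 828 bp downstream of its outermost start, with a signal of 154, which counted under the start of another transcript. The bases within 50 bp of the arf-6 summit (IV:16946898-16946998, plus strand) are shown as the only member sequence with GGGCGG, in capitals.
arf-6: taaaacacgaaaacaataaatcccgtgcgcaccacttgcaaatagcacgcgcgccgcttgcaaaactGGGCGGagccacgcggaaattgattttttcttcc

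The 6 bound Rab genes belong to several compartments. The highest of their peaks was at rab-7, whose product marks late endosomes and lysosomes, with 662 in the conservative set and 439 and 223 in the own sets of replicates 1 and 2 (II:11967592-11967886). Its summit was the farthest from the start of any bound member, 811 bp upstream, and lay 198 bp from W03C9.5, the gene before it on the same strand. The gene rab-18, for a Rab of the ER and lipid droplets, had 549, 353 and 201 in the same sets (III:1080628-1080888), with the summit 26 bp downstream of the start in the 5′ UTR and shared with kbp-4 and par-2. For rab-11.1, of recycling endosomes, the values were 345, 239 and 117, with the summit 662 bp upstream and 319 bp from rpl-7, a large ribosomal subunit gene. These 3 and rab-5 were above the median of bound genes.

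Of the remaining Rab genes, rab-5, of early endosomes, had 280, 163 and 118 in the conservative set, replicate 1 and replicate 2, with the summit 718 bp upstream. The gene rab-14, whose product acts between endosomes and the Golgi, had 197, 123 and 80.7, 442 bp upstream (X:15606889-15607264). The ER-to-Golgi gene rab-1 had 169, 108.4 and 61.6, with the summit 557 bp upstream and 227 bp from C39F7.5 (V:1264358-1264733). The 6 Rab summits had a median of 609.5 bp upstream, against 271 bp upstream for all bound members. A window of 500 bp upstream to 250 bp downstream held 2 of them, 10% of the Rab genes, against 8.11% of all genes. The 14 Rab genes without a summit were rab-3, rab-6.1, rab-6.2, rab-8, rab-10, rab-11.2, rab-19, rab-21, rab-28, rab-30, rab-33, rab-35, rab-37 and rab-39. Of these rab-3, the synaptic vesicle Rab gene, had an intronic summit 2568 bp downstream of its outermost start with a signal of 217 (II:5725097-5725472). As at arf-1, that summit counted under the start of another transcript. Rab genes with other names, such as unc-108, aex-6 and glo-1, are no members. They are named here after their values were seen. A conservative summit lay 44 bp upstream of unc-108, with a signal of 309, and aex-6 and glo-1 had none.

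Within the endosome group, binding was mostly at ESCRT genes, which act in sorting receptors for degradation. Of 11 ESCRT genes, 8 were bound (72.7%, interval 43.4 to 90.3%), against 5 of the other 27 endosome genes (18.5%, interval 8.18 to 36.7%). With each summit given to the nearest start alone, ESCRT had 5 of 11 (45.5%), without vps-2, vps-22 and vps-32.1, and the other endosome genes 5 of 27. ESCRT genes with other names are not among these 11. Of those in the list of related genes below, did-2 had a conservative summit, with a signal of 134.5. The ESCRT genes hgrs-1, stam-1, tsg-101 and mvb-12 had none, so the ESCRT share depends on the name rule. These genes are named here after their values were seen. The highest of the 8 bound ESCRT members was vps-32.1, for the main filament-forming ESCRT-III subunit. It had 815 in the conservative set and 549 and 276 in the own sets of replicates 1 and 2 (II:6588927-6589235). Its summit lay 622 bp upstream and 431 bp from the nearer start of icd-1. The ESCRT-III-related gene vps-60 had 678, 431 and 244 (V:8606352-8606613, 366 bp upstream), and no other gene shared its summit. The ESCRT-II gene vps-22 had 559, 352 and 212 (III:4962994-4963230), with the summit 621 bp upstream and 70 bp from C27F2.9, the gene before it on the strand. The gene of the ATPase that takes ESCRT-III apart, vps-4, had 425, 267 and 169, 254 bp upstream. All 4 were above the upper quartile of bound genes.

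The other bound ESCRT genes had lower peaks. The ESCRT-III gene vps-2 had 260, 215 and 47.2 in the conservative set, replicate 1 and replicate 2, and lay next to tiar-2, whose start was nearer. The ESCRT-I gene vps-37 had 232 in the conservative set and 172 in replicate 1, and its peak in replicate 2, with a signal of 69.8 and an irreproducible discovery rate (IDR) of 0.202, did not pass that replicate's threshold. The ESCRT-III gene vps-24 had 154 in the conservative set and 62.4 in replicate 2, and in replicate 1 a ranked peak of 85.8 with an IDR of 0.0749. The ESCRT-II gene vps-25 had 127, 71.6 and 52.1, 25 bp downstream of the start. It also had a second, higher conservative peak inside the gene with a signal of 464. The summit of that peak lay 4502 bp downstream of the outermost start, in an annotated 5′ UTR. The ESCRT genes without a conservative promoter summit were vps-20, vps-28 and vps-36. Of these, vps-28 and vps-36 each passed in the own set of 1 replicate, and vps-20 had a peak of 84.9 in the series' ranked list with an IDR of 0.0572. A conservative summit with a signal of 169 lay 1049 bp upstream of vps-36, just outside the window. With the peak interval in place of the summit, or with the wider window, vps-36 counted as bound.

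Outside ESCRT, 5 of 27 endosome genes were bound (18.5%), against 10% of all protein-coding genes, and some had high peaks. The complexes named here are small, so a complex with none bound is not read as a lack of binding. Of the 8 HOPS and CORVET genes, vps-39 had 776 in the conservative set and 520 and 262 in the own sets of replicates 1 and 2, 522 bp upstream (V:14038735-14039020), and vps-33.1 had 143, 89.7 and 68.8, 176 bp upstream (III:8700703-8700805). The others, vps-8, vps-11, vps-16, vps-18, vps-33.2 and vps-41, had none. Of the 5 genes of GARP and EARP, tethers of traffic out of endosomes, vps-51 alone was bound, with 721, 515 and 207, at a summit shared with the divergent gene lin-35 (the Retinoblastoma homologue), 193 bp from vps-51 and 225 bp from lin-35. Of the 7 sorting nexins, proteins that bind endosomal membranes, snx-13 alone was bound, with 532, 375 and 166 (IV:17087503-17087755, 178 bp upstream), at a promoter shared with snr-1. None of the retromer genes vps-26, vps-29 and vps-35 and neither PI3-kinase gene, vps-15 or vps-34, had a summit. The gene vps-45, which encodes a regulator of SNAREs, had the lowest peak of all bound members, 102 in the conservative set and 52.8 in replicate 2, and a ranked peak of 57.7 in replicate 1 with an IDR of 0.735. The bridge protein gene vps-13 had none.

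The bases within 50 bp of the summits of vps-60 and snx-13 and of vps-22 are given to show 1 endosome gene with the GTCTCG and CGA arrangement, 1 with TGCGTCTC (as GAGACGCA) and 1 with no searched sequence. At vps-60, TGCGTCTC and GAGAGAGA also occur within 100 bp of the summit, outside the bases shown. The windows are V:8606444-8606544 (minus strand), IV:17087566-17087666 (minus) and III:4963064-4963164 (minus), and capitals mark the sequences found.
vps-60: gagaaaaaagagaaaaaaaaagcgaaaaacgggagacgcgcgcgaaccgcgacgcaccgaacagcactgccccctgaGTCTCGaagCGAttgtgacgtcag
snx-13: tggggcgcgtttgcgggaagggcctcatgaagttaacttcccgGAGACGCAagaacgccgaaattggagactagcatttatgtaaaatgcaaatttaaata
vps-22: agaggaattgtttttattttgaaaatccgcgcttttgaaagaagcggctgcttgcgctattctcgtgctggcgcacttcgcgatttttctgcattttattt

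At the plasma membrane, 3 of the 6 exocyst genes with sec- names were bound (50%). The complex also has subunits outside the name rule, exoc-7 and exoc-8, which are named here after their values were seen. Of these exoc-7 had a conservative summit 52 bp upstream, with a signal of 132 and 103 in replicate 1's own set and none in replicate 2's, and exoc-8 had no conservative summit. For sec-15 the signal was 416 in the conservative set and 217 and 202 in the own sets of replicates 1 and 2 (X:8835874-8836103), 289 bp upstream of its start and 12 bp from the divergent gene C28G1.2. For sec-3 it was 294, 185 and 112 (X:3099916-3100118), 177 bp upstream, with no other gene sharing the summit. For sec-5 it was 130, 81.0 and 48.2 (II:9177068-9177443), 104 bp upstream and 44 bp from pir-1. Thus sec-15 and sec-3 were above the median of bound genes and sec-5 below the lower quartile. The exocyst genes sec-6, sec-8 and sec-10 and the SNARE genes sec-20 and sec-22 had no summit. The sequence at the sec-3 summit (X:3099979-3100079, minus strand) is shown with GAGACGCA, the other strand of TGCGTCTC, in capitals.
sec-3: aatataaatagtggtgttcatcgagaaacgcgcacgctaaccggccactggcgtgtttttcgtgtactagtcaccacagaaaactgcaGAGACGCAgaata

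The 4 sequences taken from earlier results on these data were searched on both strands within 100 bp of each summit. TGCGTCTC was found at 6 of 35 bound members' summits (17.1%), those of sec-61.G, sec-24.1, snx-13, vps-37, vps-60 and sec-3, against 13.5% of all 1423 promoter summits and 2.32% of all promoter windows of the same length. It overlaps GTCTCG in the bases GTCTC. GCGCGAAA was found at 2 (5.71%), rab-18 and vps-39, against 4.08% of promoter summits and 0.921% of all promoter windows. GAGAGAGA was found at 1 (2.86%), vps-60, against 7.52% and 2.39%, and GGGCGG at 1 (2.86%), arf-6, against 10.5% and 4.67%. Any of the 4 was found at 9 members' summits (25.7%), against 30.6% of promoter summits. With 35 summits, these counts rest on a few sites each. GC content within 100 bp was 42.3 ± 7.11% at bound members' summits (SD, n = 35) and 42.2 ± 7.22% at all promoter summits (SD, n = 1423).

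Most summits lay just upstream of the start. Of the 35, 32 were upstream and between genes and 3, at sec-61.A, rab-18 and vps-25, were downstream in a 5′ UTR. The median was 271 bp upstream, against 228 bp for all bound genes, and 20 lay from 100 to 400 bp upstream. Many of these summits lay in the windows of several genes. The summit also counted for another gene at 23 of the 35 members (65.7%), against 58.9% of all bound genes, and the member's own start was the nearest at 23 (65.7%), against 69.7%. Besides those already named, the partners were F32D8.13 at sec-61.G, gst-43 at copa-1, tsp-12 at copg-1, mex-1 at rab-7, nmat-2 at rab-5, nipi-3 at rab-14, eif-1 and pigb-1 at vps-24, uba-2 at vps-25 and sdz-1 at vps-33.1. The peak data cannot tell which of the genes a shared summit belongs to.

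**Figure D3:**
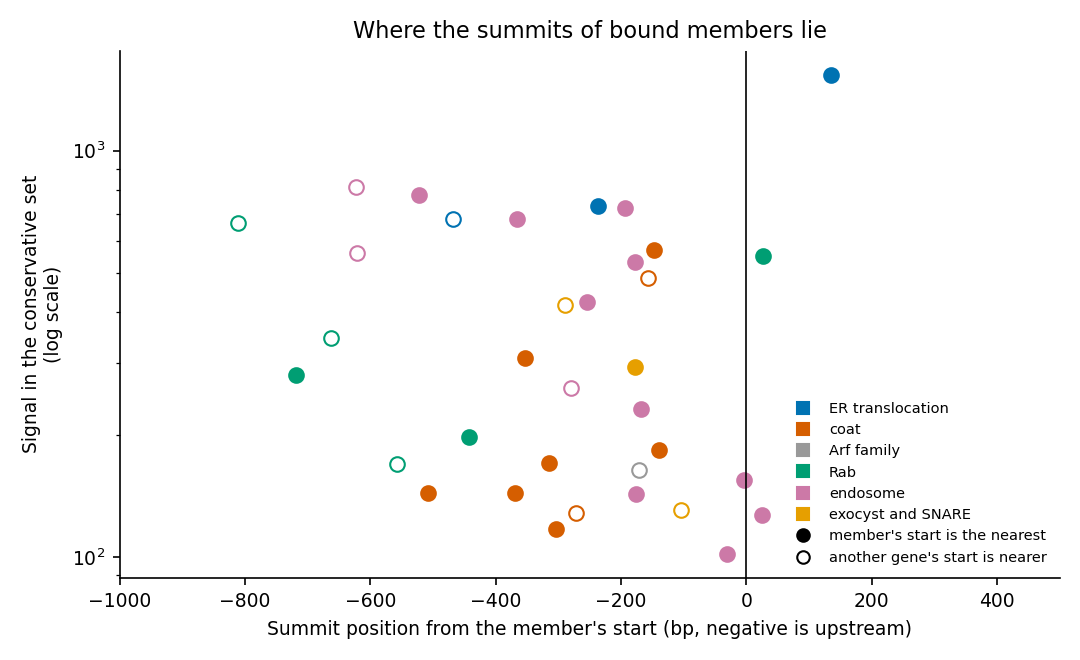
Position of the summit from the member's start (x axis, bp, negative upstream) against its signal in the conservative set (y axis, authors' value, log scale) for the 35 bound members, coloured by step. Filled points are members whose own start is the nearest to the summit and open points those with a nearer start of another gene. Of the 35, 20 lie between 100 and 400 bp upstream, and open points are found at most distances upstream.

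Many trafficking genes stand behind another gene on the same strand, and this species transcribes many such genes in operons, from the promoter of the first gene. Members inside a run of same-strand genes, with at most 1000 bp to the gene before, numbered 38 of 95 (40%), against 30.9% of all protein-coding genes. Of these 38, 6 were bound (15.8%), against 6.09% of all such genes. They were sec-12, sec-16A.2, rab-7, vps-22, vps-45 and sec-3. Of 27 members with a divergent start within 1000 bp upstream, 16 were bound (59.3%), against 28.1% of all such genes. Of the remaining 30, 13 were bound (43.3%), against 6.27%. The classes for divergent and remaining genes were chosen after the data were seen. In each class the members' share was above that of all genes of the class. In the Arf family, 7 of 9 genes stood inside a run and none of those was bound. With 7 genes, that is near the 6.09% of all genes inside a run.

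**Figure D4:**
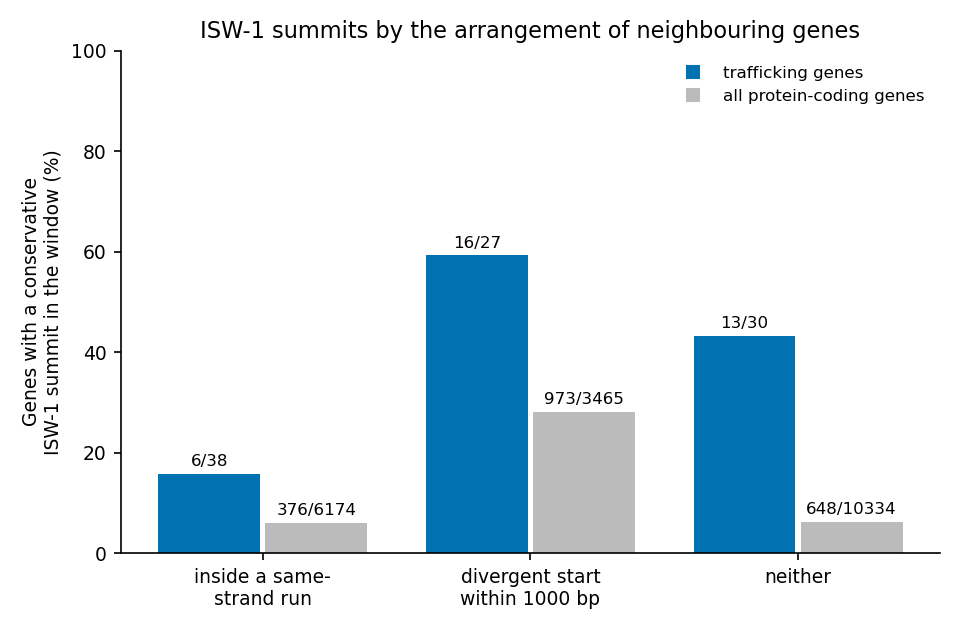
Share of genes with a conservative ISW-1 summit in the promoter window (y axis, percent), for genes inside a same-strand run, genes with a divergent start within 1000 bp upstream, and the remaining genes. Blue bars are trafficking genes and grey bars all protein-coding genes, with the number bound over the number of genes above each bar. The blue bar is the higher in each class, at 15.8, 59.3 and 43.3%, against 6.09, 28.1 and 6.27%.

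Of the 60 unbound members, 32 (53.3%) stood inside a run, against 32.3% of all unbound genes. For 13 of the 32 (40.6%), the first gene of the run was itself bound, against 17.7% of all unbound genes inside a run. The highest of these upstream peaks were at rpl-5, 5 genes before arl-1, with a signal of 744 (II:8569389-8569652), at bmy-1 before the exocyst gene sec-6 with 470 (II:5358279-5358507), and at rpb-7 before the signal peptidase gene sec-11 with 395. The others stood before arl-5, arl-13, rab-19, rab-33, vps-11, vps-16, vps-28, vps-29, vps-34 and vps-54, with signals of 86.9 to 347. Summits of the 13 lay from 1159 bp (sec-6) to 39852 bp (vps-28) from the start of the member. Whether these runs are transcribed as 1 unit was not tested.

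Peaks that did not pass into the conservative set were also found at unbound members. A summit of the series' ranked list, which holds peaks of any reproducibility, lay in the window of 23 of the 60 (38.3%), against 16.1% of all unbound genes. Both replicates' ranked lists had one for 15 (25%), against 13.9%. Signals of the 23 ran from 37.5 to 97.9 with a median of 49.1, against 101.7 at the lowest bound member. The conservative set holds peaks down to a signal of 37.5, but at the promoters of all bound protein-coding genes the lowest signal was 64.7. The median of the 23 lay below 64.7 and the highest of them above it, so heights overlapped only in part. The nearest to the threshold were vps-28, with a signal of 90.9 and an IDR of 0.0107, vps-33.2 (97.9 and 0.0131), snx-3 (93.6 and 0.023) and sec-23 (69.5 and 0.0253), where the conservative set reached an IDR of 0.00997.

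Trafficking genes outside the name rule were described with a list of 156 symbols, of which 153 matched a gene. Of these, 45 were bound (29.4%), against 10% of all protein-coding genes. As with the members, the share was high at the ER, with 13 of 21 genes (61.9%). Among them were hsp-3 (an ER chaperone of the BiP type, signal 801), dad-1 (a subunit of the oligosaccharyltransferase, 749) and crt-1 (calreticulin, 712). Also among the 13 was trap-3, through the summit that counted for the member sec-61.B, so the 2 lists are not independent. In the replicates' own sets, 13 of the ER genes had a summit in replicate 1 and 11 in replicate 2. Of 19 genes of clathrin and its adaptors, 9 were bound (47.4%), led by apb-1 (715) and epn-1 (657). Of 20 endosome partners, 6 were bound (30%), led by ppk-3 (302). The share was lower for Rab partners (7 of 33, 21.2%, led by ccz-1 with 468), SNARE and fusion genes (5 of 29, 17.2%, led by syx-5 with 678) and Golgi and tethering genes (5 of 31, 16.1%, led by cogc-2 with 302). The group of Rab partners also holds the Rab genes with other names, of which unc-108 was bound.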

How the data were processed

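ISW-1 ChIP-seq of whole L1 larvae was analysed from deposited peak lists of 2 biological replicates. Per the submitters' notes in the labels and files, peaks are on ce11, each replicate has a ranked and a thresholded list, and the series has ranked, thresholded and conservative thresholded lists made from both replicates. Not given in the sources used here are the aligner, the peak caller and the control. The lists have no header. By their layout, the lists hold a signal value for each peak, and a deposited −log10 column holds the global IDR in the ranked lists. The scale of the signal value is not stated, and it was treated here as the height of the peak. In the series' ranked lists, 16 more columns hold values by sample without naming the replicate, and these were left unused. Read counts are not in the lists, so depth is unknown.

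The 2143 conservative peaks were the main set, with 2090 peaks in replicate 1's own list and 1756 in replicate 2's. Starts came from Ensembl release 115 (WBcel235) and sequence from the RefSeq genome of that build. Python 3.11.15, numpy 2.4.6, scipy 1.17.1 and matplotlib 3.10.9 were used, and the assignment of summits was tested on simulated data. A further 17 ranked peaks at or under the highest IDR of the conservative list are not in it, and 0 of them lie in a member's window. The members, the lists and the 4 sequences were chosen with earlier results of these data known, so shares are given as descriptions with no test. Every member could be named, with full values for up to 8 bound members of each step by signal and up to 3 bound genes for each related group. Sequences shown were to be those of high signal that hold a searched sequence, none from 1 chromosome, and some that hold none. Alternatives were other peak sets, thresholds, windows, starts and rules of assignment.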

Additional observations from a re-analysis of the deposited data

How the results depend on the processing

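The share of bound members was above that of all protein-coding genes under each alternative run. The number of bound members was 35 to 35 with either replicate left out and 35 in the other thresholded list. With only peaks at or above the median signal of all conservative peaks (189) it was 22 (23.2%, against 6.02% of all genes). With each summit given to the nearest start alone it was 23 (24.2%, against 7.01%). It was 27 with a window of 500 bp upstream to 250 bp downstream (28.4%, against 8.11%) and 49 with 2000 to 1000 bp (51.6%, against 12.9%). With the start of any transcript it was 37, and with the peak interval in place of the summit also 37 (each 38.9%, against 10.5%). By step, the threshold at the median signal left 3 coat genes (20%) and 0 Arf genes, against 6.02% of all genes. ESCRT genes numbered 5 with nearest starts alone (45.5%, against 7.01%). Endosome genes outside ESCRT numbered 3 at or above the median signal (11.1%, against 6.02%) and 9 with the wider window (33.3%, against 12.9%). The counts for ESCRT and outside it were both added after the data were seen. The wider window gave 5 of 5 ER translocation genes and 3 Arf genes (33.3%), against 12.9%. The narrower window left 2 Rab genes (10%, against 8.11%). Nearest starts alone left 0 Arf genes, 3 Rab genes (15%) and 1 exocyst and SNARE gene (12.5%), against 7.01%. With the start of any transcript, 2 Arf genes were bound (22.2%, against 10.5%). Within 50 bp of the summit, GAGAGAGA was found at 0 and GCGCGAAA at 1 of the members' summits. The cause of these changes was not tested beyond what each setting removes or adds. No paired analysis was possible because the series has only 1 condition. With 5 to 38 genes a step and depth unknown, shares of single steps are imprecise.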

Other observations

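By chromosome, the share of bound members was 55.6% on chromosome V (5 of 9), against 6.21% of all protein-coding genes there, and 41.7% on chromosome X (5 of 12), against 5.82%. On chromosome IV it was 44.4% (8 of 18), against 9.78%, and on chromosome I 36.8% (7 of 19), against 14.9%. On chromosome II it was 31.6% (6 of 19), against 9.94%, and on chromosome III 22.2% (4 of 18), against 16.4%, the smallest gap of the 6 chromosomes.

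Inside gene bodies and outside the promoter window, 5 members had a conservative peak. Besides arf-1, rab-3 and vps-25, these were snx-17, a sorting nexin gene, with an intronic summit 981 bp downstream of its start (signal 111), and vps-4, with an intronic summit 4781 bp downstream (179) that counted for the promoter of npr-23.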
